A study of Sus scrofa with 26 samples.

Results

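Keratins of simple epithelium (KRT8, KRT18 and KRT19) and of the epidermis (KRT5, KRT14, KRT15, KRT17 and KRT10) were followed in subcutaneous adipose tissue (SCAT) of pigs. Of the 8 keratins listed, 6 were found by name on the array, with 12 probes among 60305, and all 12 probes were bright enough to be tested. KRT14 and KRT15 were not found among the probe names. KRT18 had drawn attention by its difference between temperatures, so the list was selected on that contrast, and every difference between temperatures is given for the members as a description with no test. The breed contrasts, the interaction of breed with temperature and the covariation between pigs of the same group played no part in that choice and were tested.

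The tissue came from castrated male growing pigs of 3 genetic types, Créole (written Creole in the labels), Large White (LW) and their cross (F1). Thermoneutral (TN) pigs were kept at 24 °C and slaughtered before the temperature rose. Heat stressed (HS) pigs were slaughtered after about 5 days of heat, which the labels of the samples give as 30 °C and the text of the series as 32 °C. There were 3 Creole TN, 5 Creole HS, 4 F1 TN, 5 F1 HS, 4 LW TN and 5 LW HS pigs, each on 1 one-colour array, 26 in all. Temperature cannot be told apart from the day of slaughter and the age it brought. The study's methods place the pigs in blocks of littermates, with fewer blocks per breed than pigs in an HS group, so each HS group holds littermates. Pen, litter and parents are not in the labels and could not enter the fit, which treats pigs as independent. The p-values may therefore be too small for the breed contrasts. In the study each pen was slaughtered at a single temperature, so those for HS minus TN of other genes may be too small as well. The piece of tissue was ground whole, with no cell type separated from the others.

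Keratins are the intermediate filament proteins of epithelial cells. They work in pairs of one type I and one type II protein, and the pair tells the kind of epithelium. KRT8 (type II) and KRT18 (type I) fill single-layered epithelia such as ducts and glands, often together with KRT19 (type I), which has an unusually short tail. KRT5 (type II) is the keratin of basal cells in stratified epithelia, where KRT14 and KRT15 are its type I partners, while KRT17 (type I) belongs to skin appendages and activated keratinocytes and KRT10 (type I) to the upper layers of the epidermis. Adipocytes, fibroblasts and endothelial cells build their filaments mainly of vimentin. In the RefSeq gene table of assembly Sscrofa11.1, KRT8 and KRT18 stood next to each other with 0 protein coding genes between them, and so did KRT19 and KRT15 on another chromosome. The array files gave no genome position for the probes.

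The probes are 60 bases long, and the ones below are shown because they decide how far the keratins can be told apart. In the first pair, capitals mark a run of 23 bases that the second KRT18 probe shares with the only KRT19 probe.
KRT18 probe 2: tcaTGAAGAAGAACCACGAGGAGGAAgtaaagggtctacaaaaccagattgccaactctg
KRT19 probe 1: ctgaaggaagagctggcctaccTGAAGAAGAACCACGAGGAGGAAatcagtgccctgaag
KRT18 probe 1 is another sequence and shared no run of 20 or more bases with any of the 60305 probes on either strand. It was the brighter probe and represents KRT18 in what follows. The first 30 of its 60 bases are given here, beside the first 30 of KRT8 probe 1 and 2 further KRT8 probes in full.
KRT18 probe 1: agtggtgtctgagacctcagacaccaaagt
KRT8 probe 1: tgggaagctggtgtctgagtcctctgatgt
KRT8 probe 2: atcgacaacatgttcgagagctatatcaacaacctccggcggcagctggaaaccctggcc
KRT8 probe 3: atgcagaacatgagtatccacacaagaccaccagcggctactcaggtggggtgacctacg
KRT8 probe 4 had the same 60 bases as probe 1, so these are repeat spots of one sequence. In the next pair, capitals mark 56 bases that the second probe named KRT5 shares, shifted by 4 bases, with a probe that the same files name KRT4.
KRT5 probe 2: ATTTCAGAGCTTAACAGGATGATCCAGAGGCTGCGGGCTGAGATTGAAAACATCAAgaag
KRT4 probe: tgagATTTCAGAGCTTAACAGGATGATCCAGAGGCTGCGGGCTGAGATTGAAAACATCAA
The name of KRT5 probe 2 is therefore uncertain, and KRT5 is represented by probe 1, which had the higher mean and whose name rests on the gene name in the files alone. Its accession was not matched in the RefSeq table. KRT17 had 1 probe.
KRT17 probe 1: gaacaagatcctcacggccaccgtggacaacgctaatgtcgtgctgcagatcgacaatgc
KRT10 was found only through the description column, where 2 transcript fragments are called keratin 10 from a match to 4% and 17% of the human and bovine protein. What these fragments measure is thus the least certain of the 6.

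All levels below are log2 intensities after quantile normalization, in which a step of 1 is a doubling, and are comparable between pigs for one probe but not between probes. On the 26 arrays, 68.5% to 76.6% of the probes were well above background, no spot was saturated, and pairs of arrays correlated at 0.978 to 0.993. Intensities carry no read depth, and what limits precision is the number of arrays and, for dim probes, the background.

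KRT18 was measured well above background in 26 of 26 pigs. The Creole TN pigs had levels of 7.14, 7.88 and 7.85, and the Creole HS pigs 8.29, 9.04, 7.60, 8.06 and 8.27. The F1 TN pigs had 6.63, 6.82, 7.31 and 8.34, and the F1 HS pigs 8.08, 8.58, 9.44, 8.77 and 9.30. The LW TN pigs had 8.83, 8.19, 7.69 and 7.78, and the LW HS pigs 9.84, 9.68, 9.35, 8.31 and 8.61. HS pigs lay mostly above TN pigs of their own breed, but the groups overlapped in each breed, with 1 Creole HS, 1 F1 HS and 2 LW HS pigs inside the TN range of their breed. Adjusted for breed, the level was 1.10 ± 0.22 (SE, 11 TN and 15 HS pigs) higher in HS, a 2.14-fold difference, and 14 of 15 HS pigs were above the TN mean of their breed. By breed it was 0.63 ± 0.40 for Creole pigs, 1.55 ± 0.37 for F1 pigs and 1.03 ± 0.37 for LW pigs (SE). KRT18 probe 2 gave 0.74 ± 0.17, with 15 of 15 HS pigs above their breed's TN mean. In whole tissue, a change in the number of cells of a type and a change in RNA per cell cannot be told apart.

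KRT8, the type II partner of KRT18, had levels of 8.98, 9.69 and 9.15 in Creole TN and of 9.67, 10.23, 9.57, 9.83 and 9.57 in Creole HS pigs. In F1 pigs it stood at 8.51, 8.43, 9.22 and 9.71 under TN and at 9.34, 9.86, 10.22, 9.97 and 10.18 under HS. The LW TN levels were 10.41, 11.07, 10.13 and 9.61, and the LW HS levels 10.87, 10.84, 10.77, 9.88 and 10.41. The temperature groups overlapped in each breed, and the highest level of all belonged to an LW TN pig. Adjusted for breed, KRT8 was 0.57 ± 0.17 (SE) higher in HS, and the other KRT8 probes gave 0.32 ± 0.12, 0.38 ± 0.13 and 0.58 ± 0.18. Within breeds, Creole pigs gave 0.50 ± 0.31, F1 pigs 0.95 ± 0.28 and LW pigs 0.25 ± 0.28.

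KRT19 varied far more between pigs of one group. The Creole TN pigs had 6.89, 8.48 and 7.29 and the Creole HS pigs 6.90, 9.35, 7.06, 6.86 and 8.14. The F1 TN pigs had 6.66, 7.20, 6.78 and 8.57 and the F1 HS pigs 7.42, 8.84, 10.53, 8.64 and 9.50. The LW TN pigs had 10.01, 9.17, 7.55 and 7.07 and the LW HS pigs 8.23, 9.98, 9.83, 7.16 and 7.35. Only the F1 groups were nearly separate, with 1 F1 TN pig above the lowest F1 HS pig. The difference of HS minus TN was 0.64 ± 0.43 (SE) over the breeds, made of 0.11 ± 0.78 in Creole, 1.68 ± 0.71 in F1 and 0.06 ± 0.71 in LW.

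**Figure D1:**
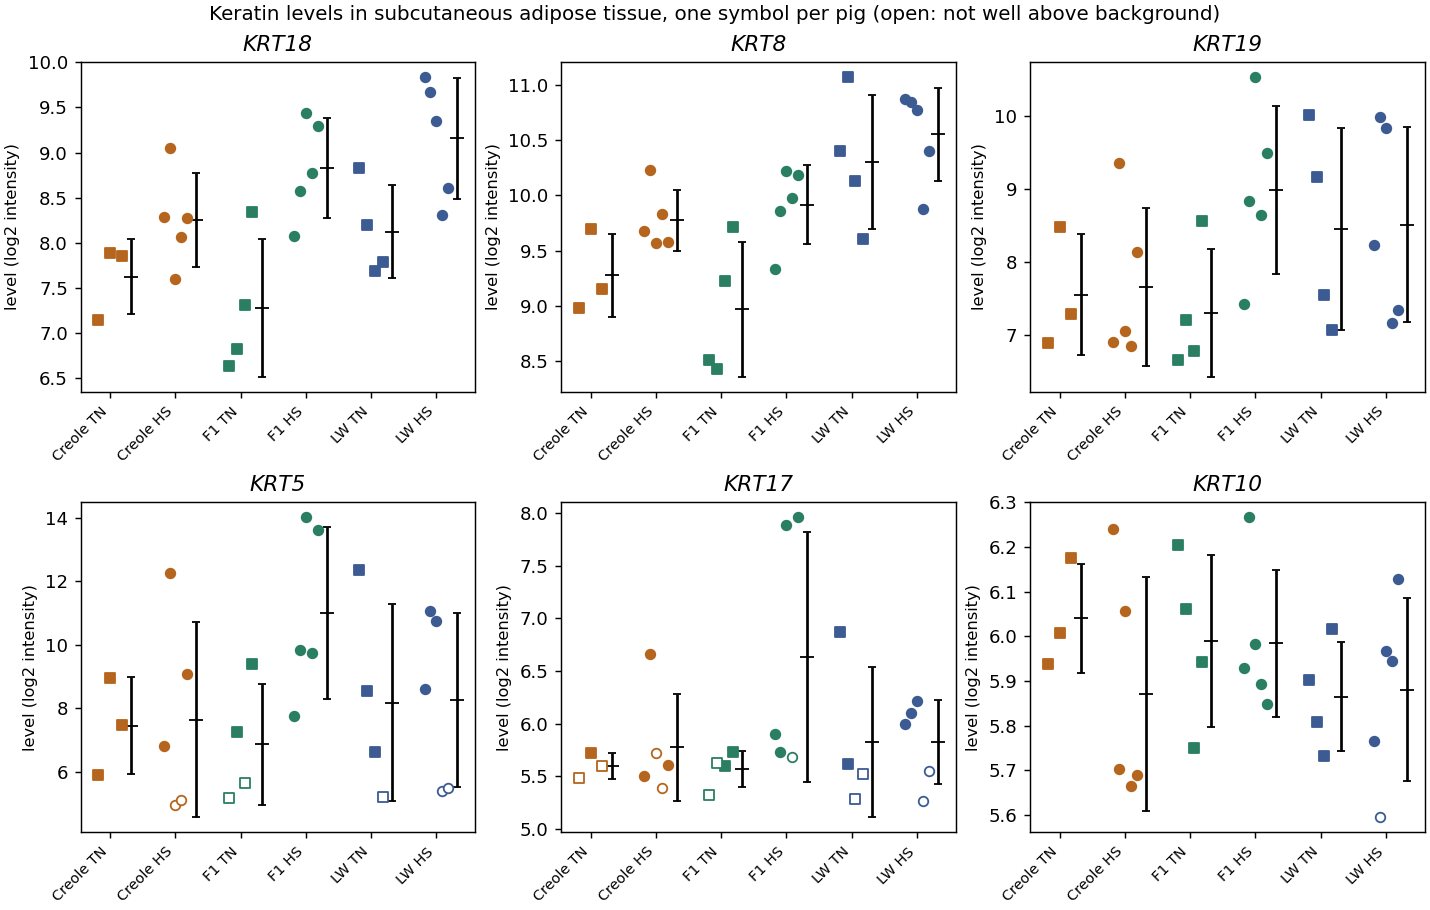
Level (log2 intensity) of the 6 keratins in each of 26 pigs, by breed and temperature; squares are TN and circles HS pigs, open symbols are spots not well above background, and bars give the group mean ± SD. KRT5 spans 4.94 to 14.02 while KRT10 stays between 5.60 and 6.27, and 14 of the 15 HS pigs lie above the TN mean of their breed for KRT18 and for KRT8.

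KRT5, the basal keratin, showed the widest spread. Its Creole TN levels were 5.89, 8.95 and 7.48, and its Creole HS levels 6.80, 12.26, 4.94, 5.11 and 9.07. In the F1 TN pigs it stood at 5.17, 7.23, 5.65 and 9.39, and in the F1 HS pigs at 7.74, 9.82, 14.02, 9.75 and 13.62. In LW it stood at 12.34, 8.53, 6.62 and 5.20 under TN and at 8.62, 11.05, 10.76, 5.40 and 5.48 under HS. In 7 of 26 pigs, with levels up to 5.65, the spot was not well above background. In the dimmest of them the lowest signal of any probe well above background was 5.12, so that the brightest pig was at least 478-fold higher than this one. Bright and dim pigs occurred side by side in LW at both temperatures, in Creole HS and in F1 TN. All 3 Creole TN and all 5 F1 HS pigs were well above background. HS minus TN was 1.54 ± 1.01 (SE) over the breeds, with 4.13 ± 1.65 in F1 beside 0.19 ± 1.80 in Creole and 0.09 ± 1.65 in LW. KRT5 probe 2, of uncertain name, ranged over only 0.79 and did not follow probe 1 within groups (r = -0.19).

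KRT17, the appendage keratin, was well above background in 15 of 26 pigs. It reached 7.96 and 7.89 in 2 F1 HS pigs, 6.87 in 1 LW TN pig and 6.66 in 1 Creole HS pig, and lay between 5.27 and 6.21 in the others. These 4 pigs were also the 4 with the highest KRT5. HS minus TN was 0.43 ± 0.25 (SE). The KRT10 fragments had low levels, between 5.60 and 6.27 for probe 1, which was well above background in 25 of 26 pigs, and between 5.31 and 5.79 for probe 2, which was so in 8. Their HS minus TN differences were -0.05 ± 0.07 and 0.08 ± 0.05. Probe 2 was not well above background on any of the 3 Creole TN and 4 LW TN arrays, and the 2 probes did not follow each other (r = -0.09).

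The median HS minus TN difference over all 44703 tested probes was 0.00, a value that quantile normalization holds near 0. The arrays had been hybridised on 5 slides, each holding both temperatures. Within the slides, without adjustment for breed, KRT18 was 1.68, 2.54, 1.03, 0.13 and 1.05 higher in HS. KRT8 gave 1.12, 1.94, 0.52, -0.03 and 0.01, and KRT5 gave 2.95, 4.08, 1.08, -2.15 and 5.44. The breeds were unequal between temperatures within slides, so these values mix breed with temperature. Slide 1 held 1 TN pig, an F1, and on slide 2 LW pigs were among the HS but not the TN pigs. On slide 5 the TN pigs were LW and the HS pigs were not. With slide as a fixed block the KRT18 difference was 1.16 ± 0.23.

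Whether the breeds differed was asked over both temperatures, with temperature in the model. KRT8 was higher in LW than in Creole pigs by 0.89 ± 0.21 (SE, 9 LW and 8 Creole pigs), a 1.86-fold difference (adjusted p = 0.00654, limma with Benjamini-Hochberg adjustment over 44703 probes). All 9 LW pigs were above the Creole mean at their temperature, though pigs of a breed shared litters. The group means ran from 8.97 ± 0.61 (SD, n = 4) in F1 TN through 9.28 ± 0.37 in Creole TN (n = 3), 9.77 ± 0.27 in Creole HS (n = 5) and 9.92 ± 0.36 in F1 HS (n = 5) to 10.30 ± 0.61 in LW TN (n = 4) and 10.55 ± 0.42 in LW HS (n = 5). Neighbours in this order differed by less than the sum of their SDs. The other KRT8 probes gave 0.62 ± 0.15, 0.70 ± 0.16 and 0.88 ± 0.22, with adjusted p-values of 0.00751, 0.00633 and 0.00866. KRT8 thus passed the LW minus Creole test with each of its 4 probes, of which probes 1 and 4 are one sequence.

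KRT18 was higher in LW by 0.76 ± 0.27 with probe 1 (adjusted p = 0.0635) and by 0.72 ± 0.20 with probe 2 (adjusted p = 0.0184), again with 9 of 9 LW pigs above the Creole mean at their temperature. The direction and size were alike and the probes fell on either side of the threshold of 0.05. KRT19 differed by 0.91 ± 0.53 (adjusted p = 0.267), KRT5 by 0.76 ± 1.24 (adjusted p = 0.731), KRT17 by 0.14 ± 0.31 (adjusted p = 0.802) and the KRT10 fragment by -0.06 ± 0.09 (adjusted p = 0.686). The KRT5 value was 0.14 without LW TN replicate 1, 1.35 without Creole HS replicate 2 and 0.07 with slide as a block, under which KRT17 was -0.08, so neither has a settled direction. One gene of 6, KRT8, therefore passed at its representative probe, beside 14.3% of all probes tested, 6.89% with the higher level in LW and 7.43% with the lower. At its representative probe the same gene alone passed the test for any difference between the 3 breeds (adjusted p = 0.00542), which 11.3% of all probes passed. KRT18 probe 2 passed that test as well (adjusted p = 0.0495) while probe 1 did not (adjusted p = 0.129), so that 5 of the 12 member probes passed.

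F1 pigs were compared with the mean of their parental breeds. KRT8 in F1 minus that mean was -0.50 ± 0.18 (SE, unadjusted p = 0.00918, adjusted p = 0.400), and 0 of the 6 genes passed after adjustment, as did 0.00671% of all probes. One of the 6, KRT8, had an unadjusted p below 0.05. The interaction of breed with temperature was passed by 0 of the 6 genes (smallest adjusted p = 0.897) and by 0.00224% of all probes, and no member had an unadjusted p below 0.05. The larger F1 values of KRT5, KRT19 and KRT17 given above are therefore not shown to differ from those of the other breeds.

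**Figure D2:**
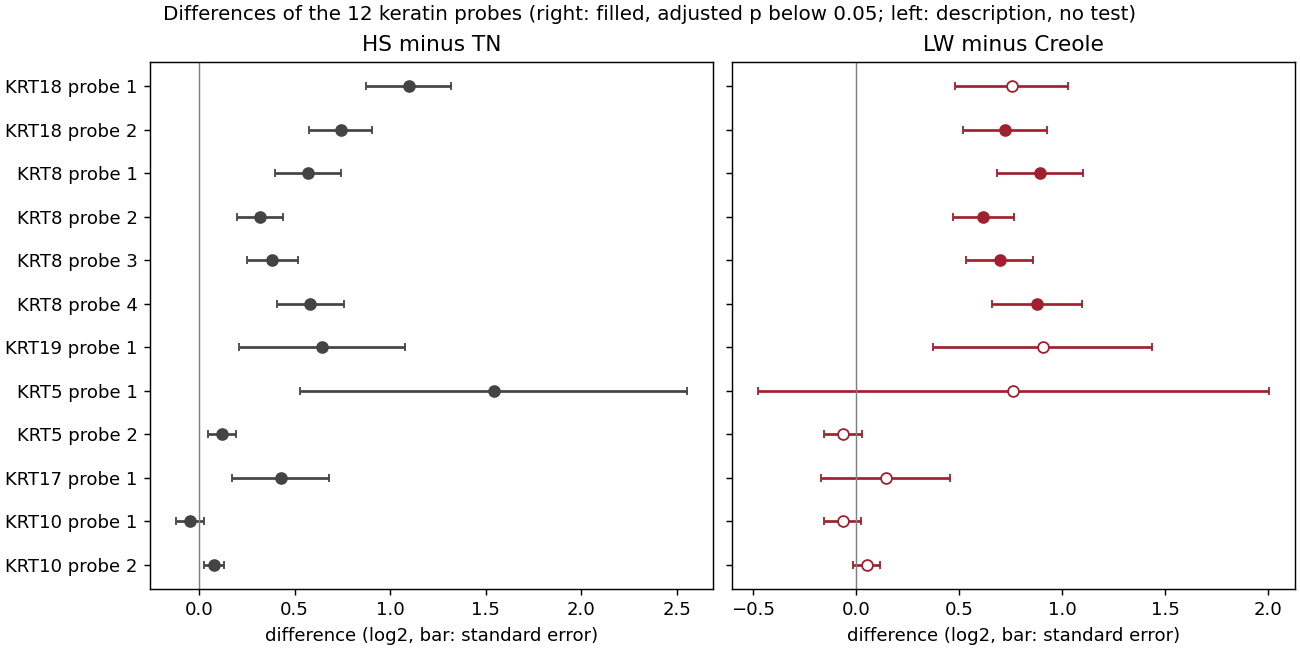
Differences of the 12 keratin probes in log2 units with standard errors, HS minus TN at left (a description, since the list was selected on this contrast) and LW minus Creole at right (filled symbols have an adjusted p below 0.05). The 4 KRT8 probes and KRT18 probe 2 are filled, with values from 0.62 to 0.89, and KRT5 probe 1 has the widest error.

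The classes were then set against each other. For each pig, the level of every gene was centred on its mean over the 26 arrays and averaged over KRT8, KRT18 and KRT19 for the simple epithelial class and over KRT5, KRT17 and KRT10 for the epidermal class. The simple epithelial score was -0.61 ± 0.51 (SD, n = 3) in Creole TN, -0.20 ± 0.59 (n = 5) in Creole HS, -0.91 ± 0.71 (n = 4) in F1 TN, 0.48 ± 0.67 (n = 5) in F1 HS, 0.20 ± 0.77 (n = 4) in LW TN and 0.65 ± 0.75 (n = 5) in LW HS. The epidermal score was -0.37 ± 0.56, -0.30 ± 1.14, -0.59 ± 0.67, 1.14 ± 1.27, -0.11 ± 1.25 and -0.07 ± 1.00 in the same order. The epidermal score follows mainly KRT5, the member with the widest spread, and KRT10 adds little to it. HS minus TN, adjusted for breed, was 0.77 ± 0.28 (SE) for the simple epithelial and 0.64 ± 0.44 for the epidermal class, and 0.13 ± 0.21 for their difference, which is smaller than its error. As a description of the groups, simple epithelial minus epidermal ranged from -1.52 to -0.01 in F1 HS and from 0.31 to 1.03 in LW HS, with no overlap between these 2 groups, which were picked as the extremes of the 6. It ranged from -0.35 to -0.13 in Creole TN, from -0.70 to 0.82 in Creole HS, from -0.85 to 0.07 in F1 TN and from -0.66 to 0.79 in LW TN, so that 3 of these 4 groups held both signs. The zero of both scores is the mean of these 26 arrays, so the sign does not tell which class is more abundant, and the difference between breeds was not tested.

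**Figure D3:**
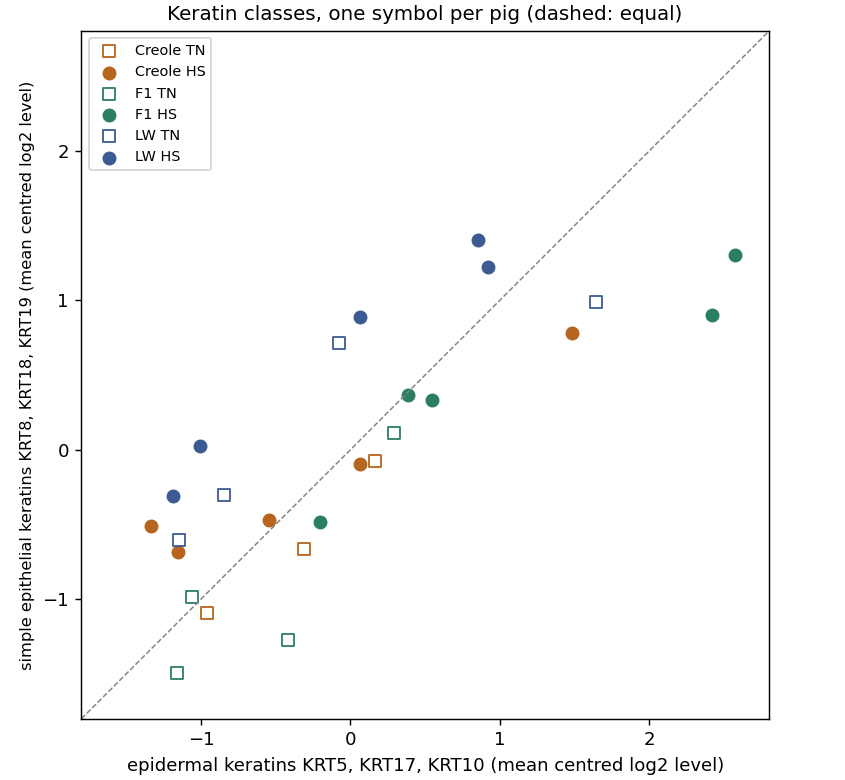
Simple epithelial against epidermal keratin score (both in log2 units around the mean of 26 arrays), one symbol per pig, with the dashed line marking equal scores. The 5 LW HS pigs lie above the line and the 5 F1 HS pigs on or below it, with differences between -1.52 and -0.01.

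Pigs of the same breed and temperature differed from one another in their keratins more than in most transcripts. The pooled SD within groups was 2.66 for KRT5, 1.15 for KRT19, 0.67 for KRT17, 0.59 for KRT18 and 0.45 for KRT8, against a median of 0.18 over all tested probes. That of KRT10 was 0.19. KRT5 had a larger SD than 99.99% of all tested probes.

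These deviations were shared. After the means of the 6 groups were removed, 10 of the 15 pairs of keratins correlated over the 26 arrays (Pearson, adjusted p below 0.05 over the 15 pairs, 100000 permutations within groups), and by Spearman's rho 10 pairs as well. They are the 10 pairs among KRT8, KRT18, KRT19, KRT5 and KRT17, and the 5 pairs with KRT10 did not pass. KRT18 went with its partner KRT8 (r = 0.81, rho = 0.86, adjusted p = 7.5e-05 and 5e-05). It went as closely with KRT19 (r = 0.82, rho = 0.81) and with KRT5 (r = 0.87, rho = 0.87). The closest pair joined the classes, KRT19 with KRT5 (r = 0.96, rho = 0.96, permutation p = 1e-05, the smallest these permutations can give, and adjusted p = 7.5e-05). KRT8 was tied more loosely to KRT5 (r = 0.67, adjusted p = 0.00102) and to KRT17 (r = 0.47, adjusted p = 0.0195). The KRT8 and KRT17 pair no longer passed without Creole HS replicate 2, F1 HS replicate 3 or LW HS replicate 4, with an adjusted p of at most 0.0701. Without the 2 arrays farthest from the median of the first gene, r was 0.84 for KRT8 with KRT18, 0.87 for KRT18 with KRT5 and 0.95 for KRT19 with KRT5. With slide means removed too, these values were 0.81, 0.86 and 0.96. KRT10 gave negative values, from -0.40 with KRT8 (adjusted p = 0.0717) to -0.24 with KRT17 (adjusted p = 0.278). With slide means removed too, the values were closer to 0 and that with KRT17 turned, as KRT10 had r = -0.36 with KRT8, -0.15 with KRT18, -0.08 with KRT19, -0.04 with KRT5 and 0.18 with KRT17. The KRT8 and KRT10 pair passed with the mean of all probes of each gene (r = -0.45, adjusted p = 0.043) and without F1 HS replicate 1, Creole TN replicate 1, LW TN replicate 3 or Creole HS replicate 5 (adjusted p = 0.039, 0.0478, 0.0485 and 0.0483). KRT18 probe 2 shares bases with the KRT19 probe as shown above, but KRT18 probe 1, on which these correlations rest, does not, and the 2 KRT18 probes followed each other at r = 0.95. The 3 further KRT8 probes correlated with probe 1 at 0.83 to 0.98.

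**Figure D4:**
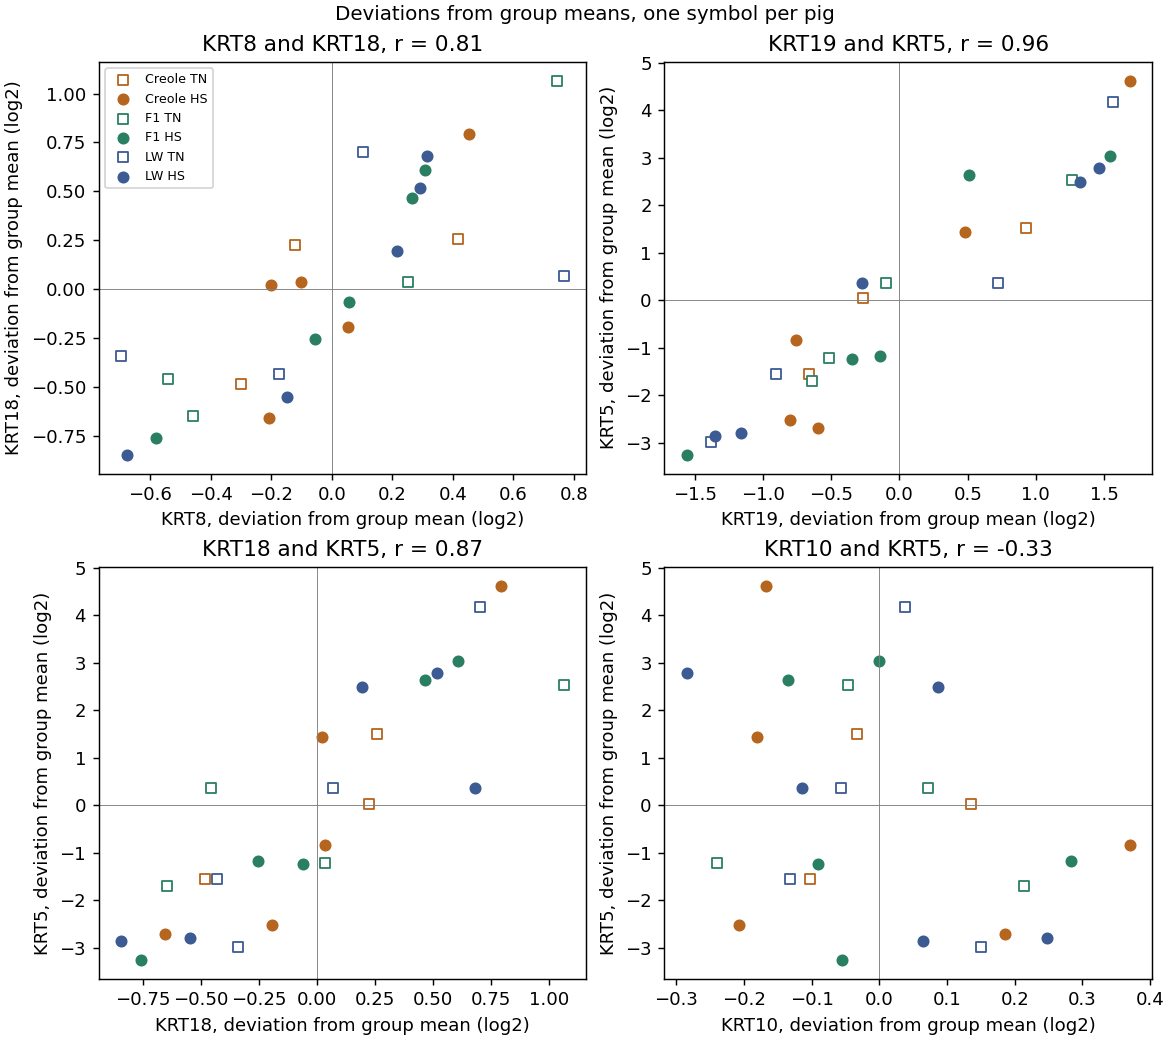
Deviations from the mean of the pig's own group in log2 units for 4 pairs of keratins, one symbol per pig, open squares TN and filled circles HS. KRT8 and KRT18 (r = 0.81), KRT19 and KRT5 (r = 0.96) and KRT18 and KRT5 (r = 0.87) rise together in all groups, while KRT10 and KRT5 (r = -0.33) do not.

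The genes whose pattern was most like KRT18 were sought among 10093 named genes, keratins left out, by Pearson's r over the 26 arrays after removal of group means, and are given as a description. The first 6 were CHIA (r = 0.87), an acidic chitinase, GLYATL2 (r = 0.84), an acyltransferase that joins fatty acids to glycine, FOXA1 (r = 0.84), a transcription factor of glandular epithelia, MFSD2A (r = 0.83), a lipid transporter, TDO2 (r = 0.82), which degrades tryptophan, and LTF (r = 0.82), the milk and mucosal protein lactoferrin. Around KRT5 they were FOXA1 (r = 0.95), CHIA (r = 0.94), LTF (r = 0.94), MFSD2A (r = 0.94), TDO2 (r = 0.94) and FXYD3 (r = 0.93), a regulator of the sodium pump. Thus 5 of the 6 names were shared by KRT18 and KRT5. CHIA, the first of the KRT18 list, was well above background on 18 of 26 arrays, MFSD2A and TDO2 on 16 each and FOXA1 on 14. GLYATL2, LTF and FXYD3 were so on all 26.

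Of the 13 other keratin genes on the array, 7 had a tested probe. KRT7, the type II keratin of ducts and glands, followed KRT5 within groups at r = 0.98 and KRT18 at r = 0.85. Its level went from 5.85 to 11.62, and its HS minus TN difference of 1.19 ± 0.66 (adjusted p = 0.253) did not pass. The probe named KRT6B, a keratin of activated epidermis, gave a signal that fell in HS by 0.68 on the log2 scale (SE 0.14, adjusted p = 0.00255, lower in 13 of 15 HS pigs than their breed's TN mean). It was the only one of the 7 to pass, beside 5.18% of all probes higher and 7.02% lower in HS, and it was also lower in LW than in Creole (-0.55 ± 0.17, adjusted p = 0.0308, 9 of 9 LW pigs below the Creole mean at their temperature). It did not go with KRT5 within groups (r = -0.28). The probes named KRT6B and KRT2 may read the strand opposite to the transcript, which was not tested, so their signals cannot be taken as levels of these genes. The remaining 5 probes, named KRT2, KRT28, KRT85, KRT4 and KRT79, had differences between -0.22 and 0.18.

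Keratin filaments are anchored at desmosomes. Of 14 linker genes listed, 7 were tested and 1 rose in HS, where 5.18% of all probes did, PPL (periplakin, 0.72 ± 0.18, adjusted p = 0.00956, higher in 13 of 15). DSP (desmoplakin, which ties keratins to the desmosome) gave 0.87 ± 0.48 (adjusted p = 0.246) and PERP 0.63 ± 0.40 (adjusted p = 0.335). The largest fall, -0.21 ± 0.10 for JUP (plakoglobin), had an adjusted p of 0.163, and JUP was lower in LW than in Creole (-0.42 ± 0.12, adjusted p = 0.0175), whereas PKP2 (plakophilin) was higher (0.30 ± 0.10, adjusted p = 0.0384). The median of the 7 was 0.09 for HS minus TN. DSP followed KRT5 within groups at r = 0.92 and PERP at r = 0.89, but JUP did not (r = -0.10). Among 7 tested hemidesmosome and basement membrane genes of 10 listed, COL7A1, the anchoring fibril collagen, rose (0.31 ± 0.08, adjusted p = 0.00809, 15 of 15), again 1 gene of 7 beside the same 5.18%, and the median was -0.02. Among 11 tested of 14 other intermediate filament proteins, 1 rose, SYNM, or synemin, a muscle filament protein (0.41 ± 0.11, adjusted p = 0.0168, 14 of 15). VIM, the vimentin of adipocytes and fibroblasts, had 0.16 ± 0.07 (adjusted p = 0.174), and the median was 0.04.

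Markers of cell types that the tissue could hold were set beside the keratins. All 7 adipocyte markers, among them ADIPOQ, PLIN1 and FABP4, were well above background on all 26 arrays, as the label of the tissue requires. Of 16 keratinocyte markers, 9 were tested and 1 rose in HS, beside 5.18% of all probes, S100A14 (0.54 ± 0.12, adjusted p = 0.00499, 14 of 15). The other large differences, SFN at 0.87 ± 0.61 (adjusted p = 0.379) and LGALS7 at 0.58 ± 0.32 (adjusted p = 0.255), did not pass. The mean centred log2 level of the 9 ranged from -0.42 to 1.02 in TN and from -0.35 to 1.24 in HS pigs. IVL (involucrin) was well above background on 8 arrays and KRTDAP on 10. KRT1, the epidermal partner of KRT10, was well above background on 0 arrays, and TP63, FLG and LOR, which define keratinocytes, were not tested. Of 12 simple epithelium markers, 10 were tested and 0 passed for HS minus TN by limma (5 higher, 5 lower, median 0.00, smallest adjusted p = 0.151). The 3 largest rises were ESRP1 at 0.46 ± 0.31, EPCAM at 0.44 ± 0.39 and CDH1 at 0.17 ± 0.21. The largest falls were CLDN7 at -0.25 ± 0.11 (adjusted p = 0.151, lower in 12 of 15) and CLDN4 at -0.16 ± 0.40. The mean centred level of the 10 ranged from -0.34 to 0.57 in TN and from -0.43 to 0.67 in HS. In LW, CLDN3 was higher (0.36 ± 0.11, adjusted p = 0.0255) and CLDN7 lower (-0.64 ± 0.14, adjusted p = 0.00413) than in Creole. Of 6 mesothelium markers only UPK1B was tested (0.19 ± 0.16, adjusted p = 0.483), and MSLN, CALB2 and WT1 were not.

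Within groups, KRT5, KRT18 and KRT8 were each correlated with the mean centred level of 14 lists, 42 relations in all, a family chosen after the data had been seen. KRT5 went with the simple epithelium markers (r = 0.91, rho = 0.93, adjusted p = 0.00021 by permutation), the desmosome linkers (r = 0.89, adjusted p = 0.00021) and the keratinocyte markers (r = 0.80, adjusted p = 0.00054). KRT18 followed the same 3 lists at r = 0.77, 0.71 and 0.64 (adjusted p = 0.00028, 0.000997 and 0.00247). KRT8 followed the simple epithelium markers (r = 0.71, adjusted p = 0.00028), while its relations to the linkers (r = 0.48, adjusted p = 0.0793) and to the keratinocyte markers (r = 0.42, adjusted p = 0.172) did not pass. The list of other keratins, which KRT7 dominates, passed with all 3. None of the 3 keratins passed with the adipocyte, fibroblast, endothelial, macrophage, nerve, muscle, red blood cell, hemidesmosome or other intermediate filament lists. With slide means removed too, a setting with no test here, KRT5 and KRT18 had r = -0.59 and -0.44 with the macrophage list, beside -0.23 and -0.15 without that step, and 0.49 and 0.49 with the nerve list, beside 0.27 and 0.32. Not every marker took part, as these genes, singled out after their values were seen, show. ESRP1 (r = 0.92), EPCAM (r = 0.80) and CDH1 (r = 0.78) followed KRT5, as did SFN (r = 0.86) and LGALS7 (r = 0.76). CDH3 (r = -0.16), MAL2 (r = -0.06), LY6D (r = -0.10) and CDSN (r = -0.10) did not. Among the other simple epithelium markers, r was 0.68 for ESRP2, 0.41 for CLDN7, 0.37 for CLDN4, 0.30 for ELF3 and 0.30 for CLDN3. A list level is an unscaled mean, so markers with a wide spread weigh most, such as CLDN4 and EPCAM (SD within groups 1.08 and 1.06).

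**Figure D5:**
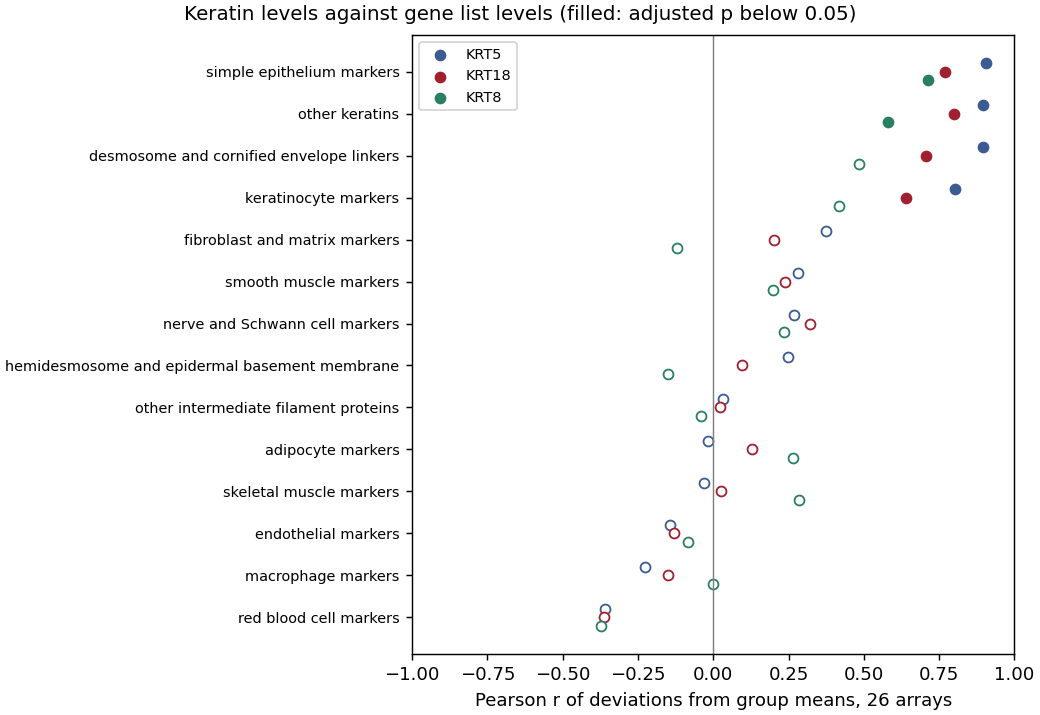
Pearson r between the level of KRT5, KRT18 or KRT8 and the mean centred level of each gene list, from deviations from group means over 26 arrays; filled symbols have an adjusted p below 0.05 over 42 relations. The simple epithelium, desmosome linker and keratinocyte lists reach 0.91, 0.89 and 0.80 with KRT5, and the 10 lists other than these and the other keratins stay between -0.37 and 0.37 (between -0.59 and 0.49 once slide means are removed too, which is not plotted).

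Because of this covariation, the breed and temperature differences were also fitted with the simple epithelium marker level of each pig as a covariate, a setting added after the data had been seen. The HS minus TN difference of KRT18 was then 1.02 ± 0.15 (SE) beside 1.10 ± 0.22 without it, that of KRT8 0.51 ± 0.12, that of KRT19 0.47 ± 0.14 and that of KRT5 1.14 ± 0.41. LW minus Creole was 0.59 ± 0.15 for KRT8 (adjusted p = 0.0205) and 0.34 ± 0.19 for KRT18 (adjusted p = 0.283). The LW minus Creole difference turned to -1.48 ± 0.54 for KRT5 (adjusted p = 0.0886), to -0.09 ± 0.19 for KRT19 (adjusted p = 0.823) and to -0.30 ± 0.23 for KRT17 (adjusted p = 0.46), none of which had passed without the covariate. With it, KRT5 passed the test for any difference between breeds (adjusted p = 0.0444). The mean of this marker level was -0.02 in TN and 0.02 in HS pigs. With so small a gap, the fit cannot tell what part epithelial content has in the HS minus TN differences. That part was not tested, nor was the part it has in the breed differences of KRT18 and KRT8.

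Some markers of other cell types differed between the temperatures. Of 9 tested nerve and Schwann cell markers, 3 rose in HS, beside 5.18% of all probes, among them MBP (1.13 ± 0.19, adjusted p = 0.000555) and PMP22 (0.40 ± 0.07, adjusted p = 0.000612). Their mean centred level ranged from -0.57 to 0.14 in TN and from -0.19 to 0.60 in HS. Of 7 fibroblast and matrix markers 4 rose, beside 5.18% of all probes, the largest being COL1A2 (0.42 ± 0.13, adjusted p = 0.0279), DCN (0.35 ± 0.10, adjusted p = 0.0216) and COL1A1 (0.31 ± 0.09, adjusted p = 0.0233), and their mean centred level ranged from -0.89 to 0.29 in TN and from -0.28 to 0.59 in HS. Of 4 tested red blood cell markers 1 fell, where 7.02% of all probes did, namely HBB, the beta chain of haemoglobin (-0.85 ± 0.21, adjusted p = 0.011, lower in 14 of 15), with 2 positive and 2 negative differences in the list. Of 7 endothelial markers 1 fell, CDH5, the endothelial cadherin (-0.23 ± 0.07, adjusted p = 0.0254, lower in 14 of 15), with 1 positive difference, 0.21 for CLDN5 (adjusted p = 0.242), and 6 negative ones. Of 7 adipocyte markers 1 rose, ADIPOQ, the hormone adiponectin (0.16 ± 0.05, adjusted p = 0.0379, higher in 13 of 15), with 4 positive and 3 negative differences and a median of 0.00. The 8 skeletal and 6 smooth muscle markers all had positive differences (medians 0.56 and 0.19), as had 5 of 6 macrophage markers (median 0.13), but none passed. KRT18 correlated within groups with HBB at r = -0.49, with CDH5 at r = -0.35 and with ADIPOQ at r = -0.17, given as a description. Within groups, the correlation of KRT18 with the nerve and the fibroblast list was 0.32 and 0.20 (adjusted p = 0.366 and 0.558), and 0.49 and 0.11 with slide means removed too. Between breeds, 3 of 7 fibroblast and 2 of 9 nerve markers passed as higher in LW than in Creole (medians 0.40 and 0.33), beside 6.89% of all probes. Of 7 endothelial markers 1 passed as higher, and of 7 adipocyte markers 1 as lower, where 7.43% of all probes did. Of 8 skeletal muscle markers 0 passed, with a median of -0.94. The part of these cell types in the KRT18 and KRT8 differences was not tested.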

How the data were processed

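Total RNA of SCAT was labelled with Cy3 and hybridised to a one-colour Agilent porcine array. Per the submitters' processing notes, the authors extracted spot intensities with Agilent Feature Extraction 10.10.1.1 and used limma. The deposited scanner files hold the median, mean, background and processed intensity of each spot, and the deposited series matrix holds normalized log2 values of the same arrays (column medians 8.17), which differed from the values used here by array medians of -0.0088 to -0.0064 and served as an alternative. Median intensities were quantile normalized, put on a log2 scale with no background subtraction, non-uniform spots were set to missing, and repeat spots were averaged per probe. The 44703 probes tested were those that Feature Extraction marked as well above background on 8 or more of the 26 arrays. Linear models (limma 3.58.1, R 4.3.3, empirical Bayes with a mean-variance trend) held breed and temperature, or the 6 groups for within-breed differences and the interaction, with Benjamini-Hochberg adjustment over all tested probes. An adjusted p below 0.05 was called. A gene was represented by its tested probe with the highest mean level. The rest of the naming rule took, from each other list, up to 3 largest HS rises, up to 2 largest falls and up to 2 genes passing LW minus Creole, of which the report gives those of the epithelial lists and of the lists with most calls, and the 6 genes most like KRT18 and KRT5. Symbols came from accessions (9604 spots), symbols (14559) or synonyms (198) in the RefSeq table of Sscrofa11.1. Probe sequences are those of the scanner files, and the 60305 sequences were searched for shared runs of at least 20 bases on both strands. Within-group correlations used 100000 permutations. The pigs of a group are separate animals but include littermates, and the labels name no litter or pen, so litter could not be modelled and p-values may be too small. The members and lists were chosen with earlier results of these data known. Alternatives were other scalings, filters, blocks, weights, the mean over a gene's probes and leaving out each array, and the fits were tested on simulated data. The values of 1 marker gene are not reported here.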

Additional observations from a re-analysis of the deposited data

Results flagged for a closer look

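One value among the 30 groups of 4 or 5 pigs examined for the 6 keratins stood apart from the others of its group. KRT17 was 6.66 in Creole HS replicate 2, where the next Creole HS pig had 5.72, and the gap was 0.741 of the range of the group against a critical value of 0.71. Chance alone marks about 1 group in 20 in this way. The same pig had the highest KRT18, KRT8, KRT19 and KRT5 of the Creole HS group, at 9.04, 10.23, 9.35 and 12.26.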

How the results depend on the processing

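No paired analysis was possible because the labels give no replicate numbers and name no litter or pen. The numbers used here follow the order of the samples and pair nothing. The higher KRT8 level in LW than in Creole kept its direction and its side of the threshold under the 10 other settings (0.59 to 0.96, adjusted p = 0.00438 to 0.0289) and with each array left out (0.78 to 1.00, adjusted p = 0.00314 to 0.0143). For LW minus Creole, 2 keratins instead of 1 passed with the mean of all probes of a gene, where KRT18 had an adjusted p of 0.0363, and leaving out an array gave 1 to 2, with KRT18 passing without Creole HS replicate 2, LW HS replicate 4 or LW HS replicate 5 (adjusted p = 0.0491, 0.0364 and 0.0467). Over its other settings the adjusted p of KRT18 ranged from 0.0363 to 0.283. For any difference between breeds, 2 keratins passed with the marker covariate. The KRT18 difference of HS minus TN was 0.92 to 1.27 under other settings and 1.00 to 1.18 with an array left out. It was 2.54 within slide 2 and 0.13 within slide 4, values not adjusted for breed. The class difference was 0.02 to 0.25 under other settings and 0.01 to 0.22 with an array left out, and the correlated pairs numbered 10 to 11 and 9 to 11. Over all probes, the HS minus TN calls were 5452 and fell to 3531 without breed in the model. Those for LW minus Creole were 6403, with 4188 without temperature and 3764 with the marker covariate, and those for any difference between breeds were 5061, with 2969 and 2960. The F1 contrast gave 3 calls, 0 with slide as a block, 43 with array weights and 3 to 51 with an array left out. The interaction gave 1, then 0, 2 and 1 to 4. The causes of these changes were not tested. KRT5, KRT17 and KRT10 lie partly at background, where their differences are compressed.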
